A study of Mus musculus with 6 samples.

Results

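The 37 genes described here are the fibroblast growth factor (FGF) and ectodysplasin signalling genes of the mouse: 22 FGF genes, 5 FGF receptor genes, 4 feedback inhibitors, 2 FGF-induced transcription factors and 4 genes of the ectodysplasin pathway. They were taken by symbol, and all 37 symbols are among the 24453 of each count file. Cells labelled as hair follicle were purified by flow cytometry from newborn dorsal skin (postnatal day 0) and their RNA was sequenced. The 6 libraries are 3 controls (HF_CTL) and 3 mutants (HF_I53A), whose genotype is given as Ring1a-/- Ring1b-/I53A. Ring1a and Ring1b are the ubiquitin ligases of Polycomb repressive complex 1, and the I53A substitution is known to impair the activity of Ring1b towards histones. The genotype of HF_CTL is labelled with the single word control, so the labels neither state nor deny a Ring1a deletion in that group. RNA of Ring1, the gene of Ring1a, was lower in every mutant library than in every control library (values below). No promoter or Cre line is named for the Ring1b alleles. The comparison joins loss of Ring1a with a null and an I53A allele of Ring1b. Whether the 3 libraries of a group came from separate animals is not stated, and the p-values measure only the spread between these libraries, some of which may be technical.

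FGF ligands bind receptor tyrosine kinases at the cell surface together with heparan sulfate, and the activated receptor signals through the Ras and ERK cascade. ERK signalling induces the transcription factors Etv4 and Etv5 and the inhibitors Spry1, Spry2, Spry4 and Dusp6, which dampen the same cascade. Ectodysplasin, encoded by Eda, is a ligand of the tumour necrosis factor family that acts through its receptor Edar and the adaptor Edaradd on NF-kB. In skin this pathway is known for the hair placode, where Fgf20 is induced downstream of it and signals to the dermal condensate.

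Library totals ran from 14335156 to 18811587 reads, and levels are given as CPM, reads scaled to a common effective library size, of which 1 unit was 14.7 to 18.2 reads. Ring1, the gene of Ring1a, was at 16.8, 22.1 and 21.1 CPM in controls and at 3.23, 7.10 and 4.88 CPM in mutants (adjusted p = 0.0113, by the quasi-likelihood test of edgeR and the Benjamini-Hochberg method). Rnf2, the gene of Ring1b, was at 59.8 and 67.1 CPM on average, and gene counts do not show the I53A codon. The follicle factors Sox9 and Lhx2 averaged 536 and 334 CPM in controls, while Ly6a, which encodes Sca1, stayed between 0.502 and 1.49 CPM in all 6 libraries. The 9 suprabasal interfollicular markers listed, Ly6a among them, summed to 4225 to 5689 CPM in controls and 2744 to 4468 CPM in mutants. Most of the sum in controls was Krt1 and Krt10, at 3358 and 1357 CPM on average. The only sort that the protocol text spells out takes Sca1-positive interfollicular cells, so the gate behind the follicle label is unknown here. The libraries of number 3 stood apart from the others of their groups, with Itga6 (a gene of the sort) at 980 CPM in control 3 and 1019 CPM in mutant 3 against 560 to 685 CPM in the other 4.

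None of the 21 FGF and ectodysplasin genes with enough reads for the test was called at an adjusted p under 0.05, against 3% of the 14345 genes tested (430 genes, of which 2.59% of all tested were higher in mutants and 0.404% lower). At an unadjusted p under 0.05 there were 6 of 21 (28.6%), against 14.9% of all genes tested: Fgfrl1, Fgf13, Fgf20, Etv5, Etv4 and Fgf11. DESeq2 called 3 of the genes, Fgfrl1 and Fgf13 as higher and Fgf20 as lower, against 6.87% of all genes (986). A fit with the replicate number of the labels as a term also called 3, Fgfrl1 and Fgf11 as higher and Edar as lower, against 9.38% of all genes under that fit (6.09% higher and 3.29% lower). The labels do not say what a number marks, so the pairing in this fit is uncertain. The groups did not overlap for 8 of 21 genes (38.1%), against 21.2% of all genes tested. Of these, 3 were higher in mutants (background 12.1%) and 5 lower (background 9.15%). The median log2 fold change of the 21 genes was -0.13, and that of all genes tested was 0.00. The other 16 genes did not pass the filter on low counts, and are given by their reads.

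The regions before the starts of Fgfrl1 and Edar are shown because these genes were called with the replicate number as a term. Of Fgf11, the third such gene, the window lies inside its own RefSeq gene span and is not shown. Both sequences are the 250 bases upstream of the RefSeq start in GRCm38.p6, 5′ to 3′ on the strand of the gene, with CG dinucleotides in capitals. They lie at chr5:108693979-108694228 on the plus strand and chr10:58675697-58675946 on the minus strand.
Fgfrl1: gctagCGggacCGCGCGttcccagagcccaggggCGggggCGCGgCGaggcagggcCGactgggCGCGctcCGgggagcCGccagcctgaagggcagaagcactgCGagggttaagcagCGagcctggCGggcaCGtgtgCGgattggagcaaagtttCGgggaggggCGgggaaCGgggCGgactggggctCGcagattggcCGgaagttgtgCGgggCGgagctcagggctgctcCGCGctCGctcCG
Edar: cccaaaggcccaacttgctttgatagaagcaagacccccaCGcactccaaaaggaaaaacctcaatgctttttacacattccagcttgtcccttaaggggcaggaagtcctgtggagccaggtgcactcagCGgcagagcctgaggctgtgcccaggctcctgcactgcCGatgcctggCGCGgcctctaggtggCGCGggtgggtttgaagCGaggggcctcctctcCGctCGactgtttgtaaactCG
The stretch of Fgfrl1 held 30 CG dinucleotides and that of Edar 11. Counted in 300-base windows that also take in 50 bases after the start, Fgfrl1 had 37, as many as or more than 95% of the 32851 RefSeq promoter windows, and Edar had 14 (65.4%). RefSeq windows were found for 28 of the 37 genes, and their 36 windows had a median of 19 CG dinucleotides against 7 over all windows. Genes that failed the filter also had a median of 16. The Fgfrl1 window held an ETS motif (CGGAAG, searched on both strands), which 16.9% of all windows hold, and the Edar window a LEF/TCF motif (CTTTGA), which 16.0% hold. A 10-letter kappa-B motif, searched the same way, was in none of the 36 windows and in 0.155% of all. Neither match overlapped another motif searched, and a match is a run of letters, not evidence of binding.

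**Figure D1:**
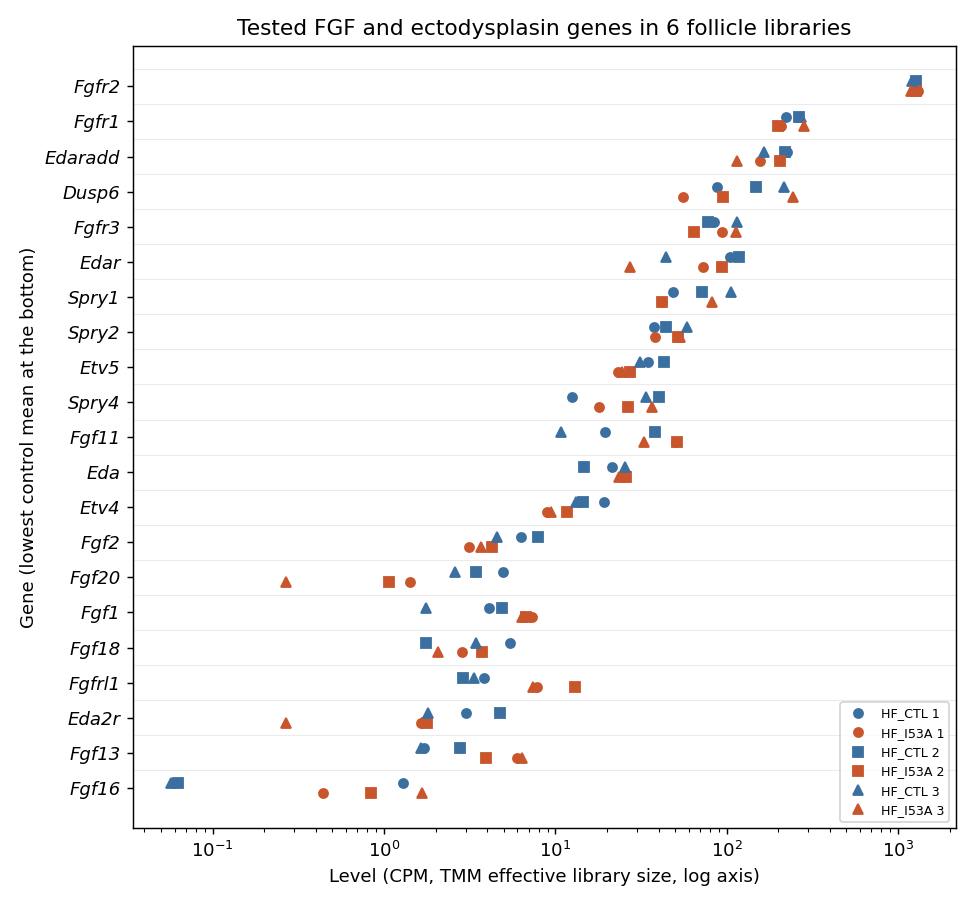
Level of the 21 tested genes in each library, in CPM on a log axis, with controls in blue, mutants in orange and the replicate number as the symbol. Fgfr2 sits above 1000 CPM in all 6 libraries, the ligands Fgf1, Fgf2, Fgf16, Fgf18 and Fgf20 sit under 10 CPM, and the triangles of number 3 are the lowest of their groups for Edar, Edaradd, Eda2r and Fgf20.

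Secreted FGF ligands were scarce in the sorted follicle cells of both genotypes. Of 15 paracrine ligands 5 passed the filter, and none of the 3 endocrine ligands did. Fgf20, the placode ligand (chromosome 8, 40279166 to 40286953), was at 4.97, 3.45 and 2.61 CPM in controls and at 1.43, 1.07 and 0.267 CPM in mutants. Every mutant library was below every control library. The mean was 3.68 ± 1.20 CPM in controls and 0.922 ± 0.594 CPM in mutants (SD, n = 3 each). The log2 fold change was -1.97 (SE 0.67, 95% interval -3.47 to -0.48). This difference did not pass after adjustment (edgeR adjusted p = 0.182), nor with the replicate number as a term (log2 fold change -2.15, adjusted p = 0.0618). DESeq2 called it (adjusted p = 0.0433), and the reads behind it were 174 in controls and 48 in mutants. The longer GENCODE model of Fgf20 overlaps exons of Micu3 on the other strand, and Micu3 was at 27.2 to 33.9 CPM in controls and 17.4 to 31.9 CPM in mutants.

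Fgf1, an acidic FGF that can bind all FGF receptors, was at 4.09, 4.89 and 1.76 CPM in controls and at 7.35, 6.74 and 6.42 CPM in mutants. The groups did not overlap, and the log2 fold change was 0.93 (SE 0.43, edgeR adjusted p = 0.357). Fgf2, the basic FGF, was at 6.34, 7.91 and 4.54 CPM in controls against 3.12, 4.29 and 3.68 CPM in mutants. Here every mutant library was the lower one, with a log2 fold change of -0.76 (SE 0.38, edgeR adjusted p = 0.405). Fgf2 shares exon sequence with Nudt6 on the opposite strand, which averaged 17.5 CPM in controls and 11.2 CPM in mutants, and without a stated strand setting their reads cannot be told apart.

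Fgf18, a ligand expressed in the resting follicle, averaged 3.56 ± 1.85 CPM in controls and 2.89 ± 0.843 CPM in mutants (SD, n = 3 each), and the groups overlapped. Fgf16 passed the filter on 68 reads in all, at 0.471 ± 0.713 and 0.982 ± 0.629 CPM, with the control mean resting on control 1 (19 of 21 reads). For Fgf18 and Fgf16 the 95% interval of the log2 fold change reached from -1.48 to 0.89 and from -1.48 to 3.61.

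The paracrine ligands that failed the filter had 0 to 84 reads over all 6 libraries. Fgf9, a ligand of epithelia and mesenchyme, had 6, 0 and 8 reads in controls and 31, 31 and 8 in mutants. The ratio of its pooled CPM was 4.83 (95% interval 2.69 to 9.28, counting error only), and without a filter on low counts its edgeR adjusted p was 0.442. Fgf5, known as the signal that ends hair growth, had 5, 6 and 18 reads in controls against 1, 0 and 1 in mutants. Its ratio was 0.0666 (0.00770 to 0.263, counting error only), and its adjusted p without the filter was 0.322.

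Fgf17 had 37 reads in controls, 32 of them in control 1, and 11 in mutants. Fgf7 and Fgf10, ligands of the dermis and dermal papilla for the epithelial form of Fgfr2, had 15 and 7 reads in controls and 12 and 4 in mutants. Fgf22 had 13 reads in all, Fgf8 had 11, Fgf4 had 4, Fgf3 had 2 and Fgf6 had none. Among the endocrine ligands Fgf15 had 12 and 21 reads, Fgf21 had 2 and 10 (all 10 in mutant 3) and Fgf23 had 2 and 15. A count of 0 allows up to 3 reads, which is 0.164 to 0.204 CPM in these libraries.

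Fewer cells of a type and less RNA per cell cannot be told apart in such bulk libraries. The levels of other cell types were therefore set beside the ligands. The 12 dermal papilla markers listed, which include Fgf7 and Fgf10, summed to 744 to 933 CPM in controls and 643 to 944 CPM in mutants, most of it Vcan, which averaged 651 CPM in controls. The more restricted markers Corin, Sox2 and Rspo3 averaged 1.14, 0.416 and 0.551 CPM in controls. The 10 dermal fibroblast markers summed to 1453 to 1716 and 1324 to 2073 CPM, and none of the tested markers of either list was called with group as the only term. The dermal papilla marker Trps1 was called as higher with the replicate number as a term (94.3 and 192 CPM on average, log2 fold change 1.12, adjusted p = 0.00656). Among markers of other cells, the sebocyte gene Pparg fell from 10.3 to 0.831 CPM (edgeR adjusted p = 0.0215). The suprabasal gene Krt1 averaged 3358 CPM in controls and 2126 CPM in mutants and was called as lower with the replicate number as a term (adjusted p = 0.00154), where Krtdap of the same list was called as higher (203 and 313 CPM, adjusted p = 0.00578). The keratinocyte genes Krt5 and Cdh1 were called as higher in that fit (adjusted p = 0.0476 and 0.0456). The part of these markers in the levels of the FGF genes was not tested.

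The genes of the intracellular FGF family, whose products stay in the cell and bind sodium channels instead of FGF receptors, had higher means in the mutants for both members that passed the filter, without a call in the fit with group as the only term. Fgf11 (chromosome 11, 69796068 to 69802944) was at 19.4, 38.4 and 10.8 CPM in controls and at 50.4, 51.2 and 32.9 CPM in mutants. Mutant 3 lay below control 2, so the groups overlapped, but within each number the mutant was the higher library. The log2 fold change was 0.97 (SE 0.40, edgeR adjusted p = 0.289), and with the replicate number as a term it was 1.12 (SE 0.23, adjusted p = 0.0193). Without control 2 or control 3 the value was 1.57 or 0.64 (adjusted p = 0.0520 and 0.314, no replicate term).

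Fgf13 (chromosome X, 59062139 to 59585572) was at 1.70, 2.76 and 1.65 CPM in controls and at 5.98, 3.94 and 6.35 CPM in mutants. The groups did not overlap. The means were 2.04 ± 0.628 and 5.42 ± 1.30 CPM (SD, n = 3 each). This is a log2 fold change of 1.41 (SE 0.45, edgeR adjusted p = 0.152). DESeq2 called it (adjusted p = 0.0428), and the replicate term did not (adjusted p = 0.103). Fgf12 had 1 read in all, and Fgf14 had 3 reads in controls and 12 in mutants, all 12 in mutant 3.

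The receptors that carry FGF signals differed little between the genotypes. Per kilobase of exon, Fgfr2, the main FGF receptor of epidermal keratinocytes, was the most abundant of the 37 genes in controls at 120 ± 3.45 CPM per kilobase, ahead of Dusp6 at 48.0 ± 20.3. Edaradd and Spry1 came next, at 30.5 ± 4.88 and 25.9 ± 10.04. Among the receptors, Fgfr1 was at 25.6 ± 2.78 and Fgfr3 at 12.9 ± 2.76 CPM per kilobase, so that the order of Fgfr2, Fgfr1 and Fgfr3 exceeded the spread between controls.

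Fgfr2 (chromosome 7, 130162451 to 130266808) was at 1239, 1279 and 1207 CPM in controls and at 1310, 1266 and 1186 CPM in mutants. The groups overlapped, with a log2 fold change of 0.01 and a 95% interval from -0.29 to 0.32 (edgeR adjusted p = 0.979). Fgfr1 was at 221, 266 and 270 CPM against 208, 200 and 284 CPM, a log2 fold change of -0.13 (interval -0.53 to 0.26, edgeR adjusted p = 0.820). Fgfr3, known as a brake on keratinocyte growth, was at 84.4, 77.4 and 115 CPM against 93.6, 64.3 and 114 CPM. Its log2 fold change was -0.02 (interval -0.55 to 0.50, edgeR adjusted p = 0.979), and control 3 and mutant 3 were the highest of their groups. Their gene models overlap exons of other genes, Ctbp2 on the same strand for Fgfr2, and Gm16159 and G630022F23Rik on the opposite strand for Fgfr1 and Fgfr3. With 3 libraries per group and group as the only term, a change within these intervals cannot be told from none. With the replicate number as a term the log2 fold changes of Fgfr2, Fgfr1 and Fgfr3 were 0.01, -0.14 and -0.04 (SE 0.08, 0.11 and 0.13). None of these was called in that fit (adjusted p = 0.949, 0.506 and 0.885).

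Fgfrl1, a receptor-like protein that binds FGF but lacks the kinase domain (chromosome 5, 108694229 to 108706950), was at 3.82, 2.89 and 3.35 CPM in controls. In mutants it was at 7.84, 13 and 7.42 CPM. All mutant libraries were above all controls, and the means were 3.35 ± 0.465 and 9.42 ± 3.11 CPM (SD, n = 3 each), a 2.81-fold difference. The log2 fold change was 1.49 (SE 0.36, 95% interval 0.68 to 2.30), with the smallest p of the 21 genes (unadjusted p = 0.00223 in edgeR, adjusted p = 0.0622). Fgfrl1 passed with the replicate number as a term (log2 fold change 1.45, adjusted p = 0.0382), with a term for sex (adjusted p = 0.0452), without the filter (adjusted p = 0.0470) and with DESeq2 (adjusted p = 0.00378). The sex term called 3.81% of all genes, and the fit without the filter 3.18% of its 20001 genes. In the fits without 1 library it was not called, with adjusted p from 0.0744 to 0.304 and log2 fold changes from 1.19 (without mutant 2) to 1.63. Fgfr4 was nearly silent, with 5 reads in controls and 20 in mutants (ratio of pooled CPM 3.86, 95% interval 1.41 to 13.2, counting error only). Without the filter on low counts the edgeR adjusted p of Fgfr4 was 0.688.

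**Figure D2:**
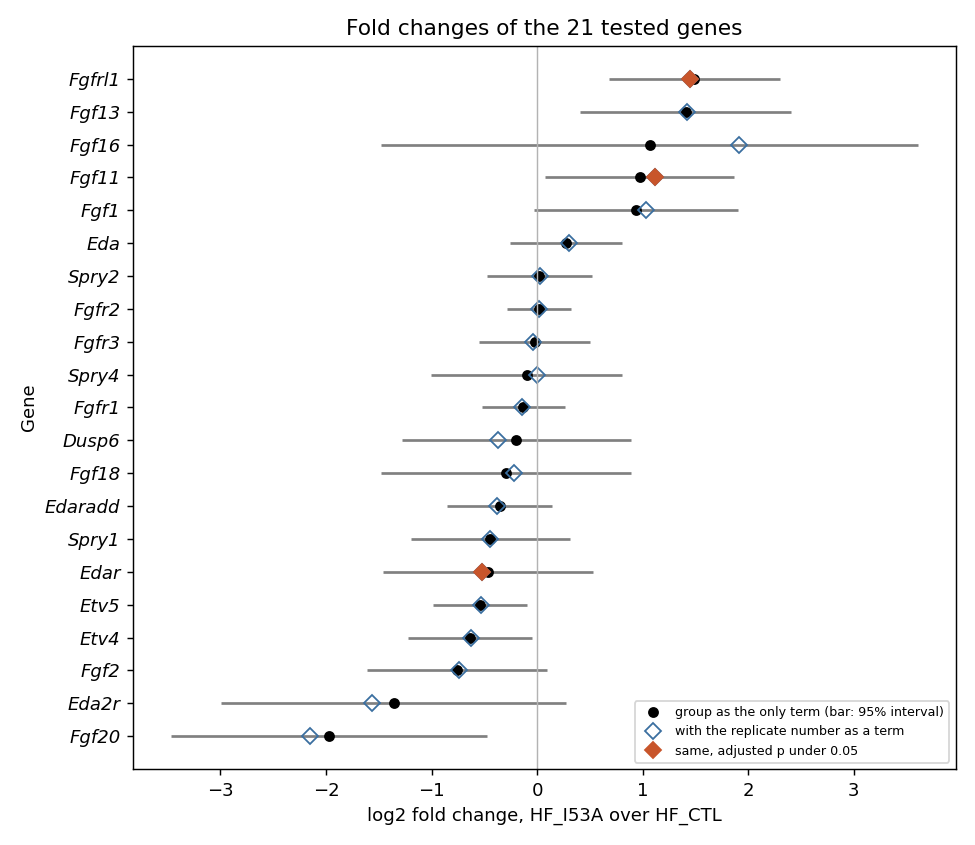
log2 fold change of the 21 tested genes in mutants over controls, with 95% intervals from the fit with group as the only term, and diamonds for the fit with the replicate number as a term. Fgfrl1, Fgf11 and Edar carry filled diamonds (adjusted p 0.0382, 0.0193 and 0.0385 in that fit), and the receptors Fgfr1, Fgfr2 and Fgfr3 lie within 0.15 of 0.

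The 2 ETS transcription factors that FGF signalling induces were lower in every mutant library, without passing the adjusted test. Etv5 (chromosome 16, 22381313 to 22439570) was at 34.6, 43.0 and 31.3 CPM in controls and at 23.1, 27.2 and 24.5 CPM in mutants. The means were 36.3 ± 6.04 and 24.9 ± 2.12 CPM (SD, n = 3 each). On the log2 scale the difference was -0.54 (SE 0.20, edgeR adjusted p = 0.227). Etv4 (chromosome 11, 101769747 to 101785310) was at 19.3, 14.4 and 13.2 CPM in controls against 8.99, 11.7 and 9.43 CPM in mutants. Its log2 fold change was -0.64 (SE 0.26, edgeR adjusted p = 0.287). With the replicate number as a term the adjusted p were 0.0739 and 0.157, and without 1 library the log2 fold changes ran from -0.63 to -0.41 for Etv5 and from -0.76 to -0.46 for Etv4. Etv1, an ETS gene of the FGF-induced list described below, was at 1.29, 0.314 and 5.51 CPM in controls. In mutants it was at 1.26, 1.01 and 2.01 CPM, so its groups overlapped (edgeR adjusted p = 0.791).

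The feedback inhibitors of the same cascade varied more within a group than between groups. Dusp6, the phosphatase of ERK, was at 87.9, 148 and 215 CPM in controls and at 55.4, 95.6 and 243 CPM in mutants. Number 3 was the highest in both groups and number 1 the lowest, and the log2 fold change of -0.20 had an interval from -1.28 to 0.88 (edgeR adjusted p = 0.909). Spry1 was at 48.4, 71.3 and 106 CPM against 42.1, 41.9 and 82.4 CPM, also highest in number 3 of each group (log2 fold change -0.44, edgeR adjusted p = 0.621). With the replicate number as a term Spry1 was at -0.44 with an adjusted p of 0.10.

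Spry2 averaged 47.0 ± 10.6 and 47.7 ± 8.49 CPM, and Spry4 averaged 28.9 ± 14.5 and 27.0 ± 9.32 CPM (SD, n = 3 each). Sprouty proteins inhibit receptor tyrosine kinase signalling upstream of ERK. For Spry2, Spry4 and Dusp6 the sign of the log2 fold change differed between the alternatives tried, as it did for Fgfr2, Fgfr3, Fgf16 and Fgf18. The number 3 libraries that were high in Dusp6 and Spry1 were also the highest of their groups in the summed keratinocyte markers (18200 and 22174 CPM against 14369 to 16552 CPM in the other 4), and the part of these in the result was not tested.

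Of the ectodysplasin pathway, the ligand gene Eda did not differ beyond its spread. It was at 21.5, 14.6 and 25.4 CPM in controls and at 24.9, 25.9 and 23.5 CPM in mutants, and the groups overlapped. The log2 fold change was 0.27 (SE 0.24, 95% interval -0.26 to 0.81, edgeR adjusted p = 0.680).

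Edar, the receptor (chromosome 10, 58600780 to 58675696), was at 105, 119 and 44.5 CPM in controls and at 72.4, 94.5 and 27.3 CPM in mutants. Library 3 was far below the others in both groups, the groups overlapped, and the mutant was the lower library within each number. The log2 ratio within numbers 1, 2 and 3 was -0.54, -0.33 and -0.70. With group as the only term the log2 fold change was -0.46 (SE 0.45, edgeR adjusted p = 0.718), and with the replicate number as a term it was -0.52 (SE 0.13, adjusted p = 0.0385). With a term for sex in place of the number it was -0.04 (adjusted p = 0.978). By Xist and Ddx3y the libraries of control 3, mutant 1 and mutant 3 were male, and these had the 3 lowest levels of Edar. Both libraries of number 3 were male and the only other male library was mutant 1. A difference by sex and a difference of number 3 can therefore hardly be told apart in these 6 libraries. Without both libraries of number 3, an alternative chosen after the data were seen, the log2 fold change was -0.42 (adjusted p = 0.245). Without 1 library and with group as the only term it ran from -0.84 (without mutant 2) to -0.10 (without mutant 3).

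Edaradd, the adaptor of Edar, was at 225, 219 and 166 CPM in controls against 156, 206 and 115 CPM in mutants. Number 3 was again the lowest of each group, and the mutant the lower library of each number. The log2 fold change was -0.36 (SE 0.22, edgeR adjusted p = 0.524), or -0.38 with the replicate number as a term (adjusted p = 0.0817). Eda2r, a receptor for the shorter A2 isoform of ectodysplasin (Edar binds A1), was at 3.0, 4.77 and 1.82 CPM in controls and at 1.64, 1.79 and 0.267 CPM in mutants. Its groups did not overlap, and its log2 fold change was -1.36 (SE 0.73, edgeR adjusted p = 0.447, and 0.163 with the replicate number as a term). Of the tested genes Eda, Eda2r, Fgf13 and Fgf16 are on the X chromosome.

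Among the 21 tested genes, 8 (38.1%) were lower in the mutant of all 3 numbers, against 22.4% of all genes tested. They were Edar, Edaradd, Eda2r, Fgf20, Fgf2, Etv4, Etv5 and Spry1. Fgf1, Fgf11, Fgf13 and Fgfrl1 were higher in all 3, where 23.7% of all genes were. Shh, another placode signal, followed Edar over the libraries, at 103.5, 151 and 48.0 CPM in controls and at 63.9, 90.2 and 27.7 CPM in mutants. The 13 hair follicle markers, which include Edar and Shh, summed to 2488 to 3146 CPM in controls and 2223 to 3268 CPM in mutants, and 1 of them was called (Lgr5, lower). With the replicate number as a term 5 were called, Krt17 (adjusted p = 0.00366) and Krt79 (0.0476) as higher and Lgr5, Shh and Edar as lower, so that the sum holds markers that moved both ways. The part of these markers in the levels of Edar was not tested.

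**Figure D3:**
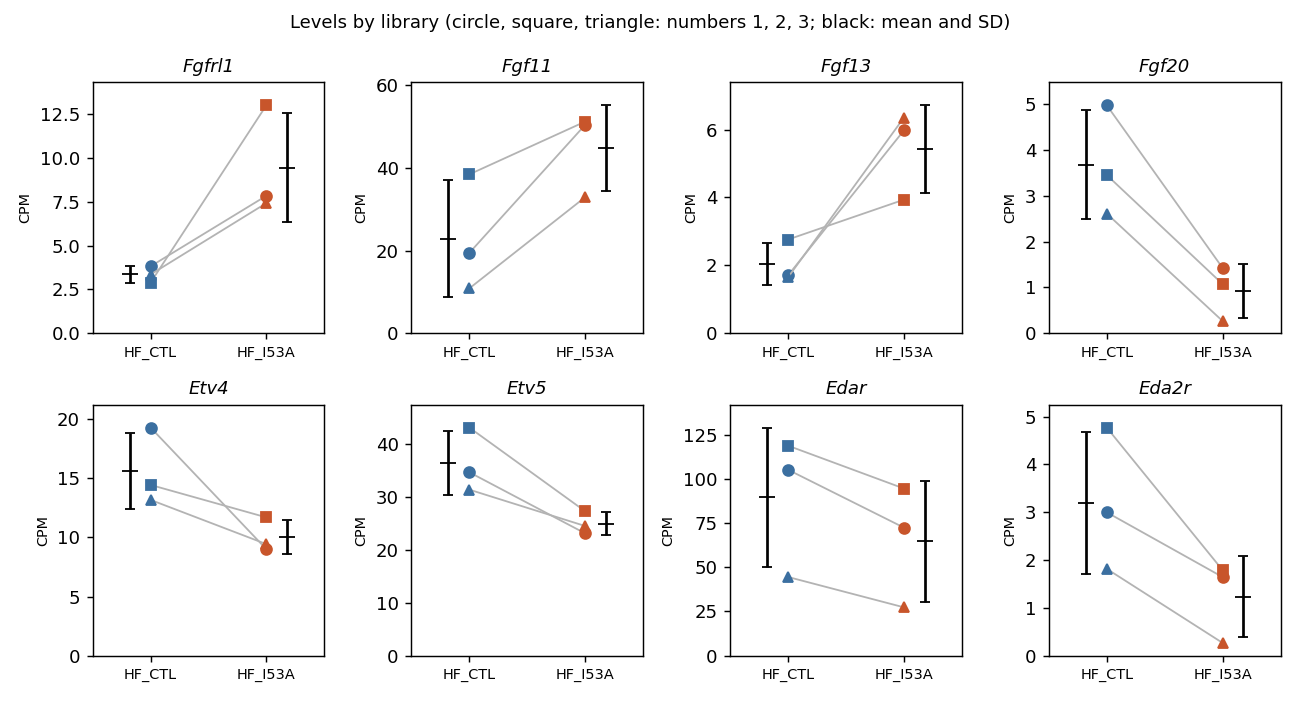
CPM of 8 genes by library, with grey lines joining the control and mutant of 1 replicate number and black marks for the mean and SD (n = 3). All 3 lines slope up for Fgfrl1, Fgf11 and Fgf13 and down for Fgf20, Etv4, Etv5, Edar and Eda2r, and the triangles of number 3 lie at the bottom of both groups for Edar (44.5 and 27.3 CPM).

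Other genes of the 2 pathways were read from the same fit in 4 lists. Of 90 tested genes (98 listed), 1 was called as higher and 2 as lower, 3.33% against 3% of all genes. With the replicate number as a term 4 were higher and 14 lower. The lower calls were 15.6% of the 90, against 3.29% of all genes tested in that fit. The lists were chosen with earlier results of these data known, so these shares are a description and not independent support.

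Of 34 tested genes that transmit FGF signals or act as cofactors (37 listed), none was called, and with the replicate number as a term 2 were higher (Ext2 and Flrt1) and 4 lower (Sos1, Cbl, Flrt2 and Flrt3). Ext2, which polymerizes heparan sulfate, was at 124 and 204 CPM on average (log2 fold change 0.71, edgeR adjusted p = 0.0554, and 0.00986 with the term). Hs6st2, a heparan sulfate sulfotransferase, averaged 0.259 CPM in controls and 2.56 CPM in mutants (3.25, SE 0.80, edgeR adjusted p = 0.0654). Its reads were 3, 1 and 9 in controls and 51, 53 and 26 in mutants. It thus passed the filter on low counts through the mutants alone, and its fold change rests on few control reads. Sulf1, a sulfatase that trims heparan sulfate, averaged 1.02 and 3.13 CPM (edgeR adjusted p = 0.215), and Fgfbp1, which releases stored FGF, averaged 57.1 and 84.6 CPM (edgeR adjusted p = 0.223). The list had a median log2 fold change of 0.05.

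A list of 16 genes joined ERK feedback genes and FGF-induced genes with other inhibitors of receptor or Ras signalling, and 15 were tested. Of these 15, 2 were called, both lower (13.3%, against 0.404% of all genes tested called as lower). A negative log2 fold change was found for 11, and the median was -0.35, against -0.003 over all genes tested. The list was chosen with earlier results of these data known, so these values are a description only. Lrig1, a transmembrane inhibitor of receptor tyrosine kinases that also marks stem cells of the follicle, fell from 242 to 141 CPM (-0.78 in log2 units, SE 0.13, edgeR adjusted p = 0.0135). Rasa1, a GTPase-activating protein that turns Ras off, fell from 209 to 134 CPM (-0.65, SE 0.15, edgeR adjusted p = 0.0454). Lrig3 was at 107 and 64.9 CPM (edgeR adjusted p = 0.0519), and Spred1, a Sprouty-related inhibitor of Ras signalling, at 174 and 114 CPM (edgeR adjusted p = 0.0559). With the replicate number as a term 4 were lower and 1 higher, the latter the cyclin gene Ccnd1 (278 and 378 CPM, adjusted p = 0.0226). The feedback genes Dusp4, Dusp5, Dusp14, Spred2, Spred3 and Il17rd were called in neither fit (edgeR adjusted p from 0.477 to 0.917 with group as the only term).

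Of 23 genes between Edar and NF-kB, all tested, none was called, and with the replicate number as a term 2 were lower. Those were Tab3 (153 and 107 CPM, edgeR adjusted p = 0.122, and 0.0239 with the term) and Tab2 (573 and 443 CPM, 0.290 and 0.0283), adaptors of the kinase that activates NF-kB signalling. Nfkbie, an inhibitor of NF-kB, averaged 3.05 and 7.93 CPM (edgeR adjusted p = 0.164), and the NF-kB subunit gene Rel 300.3 and 202 CPM (edgeR adjusted p = 0.309). The median was -0.09.

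Of 18 tested Edar targets and placode signals (22 listed), 1 was called (5.56%, against 3% of all genes tested). This was the ligand gene Bmp4, which rose from 36.2 to 76.3 CPM (edgeR adjusted p = 0.0115). With the replicate number as a term 4 were lower: Sostdc1, Sema3b, Fst and Shh. Sostdc1, an antagonist of BMP and Wnt signals around the placode, was at 345 and 141 CPM (log2 fold change -1.30, edgeR adjusted p = 0.0805, and 0.000252 with the term). Fst, which binds activin, was at 413 and 235 CPM (-0.81, edgeR adjusted p = 0.281, and 0.0331 with the term). Sema3b was at 28 and 16.9 CPM (-0.73, edgeR adjusted p = 0.159, and 0.0476 with the term), and Ltbr, the lymphotoxin beta receptor, at 6.53 and 11.1 CPM (edgeR adjusted p = 0.234). Among the genes called in neither fit were Foxi3, Dkk4, Lef1, Ctnnb1, Wnt10a, Wnt10b and Cxcl10. Their edgeR adjusted p ran from 0.802 to 0.995 with group as the only term. The median of the list was 0.04.

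**Figure D4:**
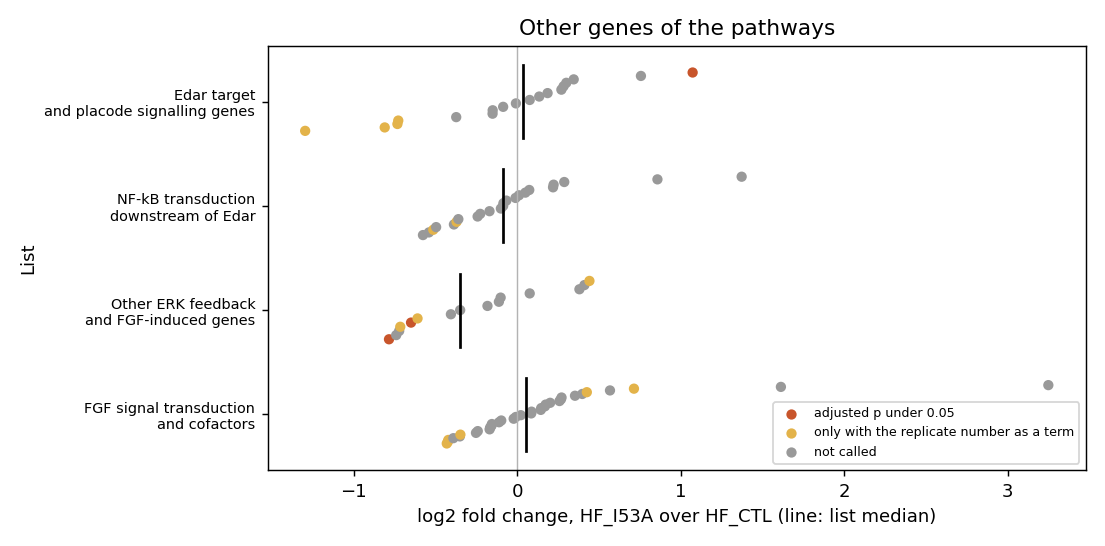
log2 fold change of the 90 tested genes of the other pathway lists, 1 point per gene, with a black line at each list median and colours for the calls. The 3 genes called with group as the only term are Lrig1, Rasa1 and Bmp4. The list of ERK feedback and FGF-induced genes, which also holds other inhibitors of receptor or Ras signalling, has the lowest median, at -0.35. The medians of the FGF transduction, NF-kB and Edar target lists are 0.05, -0.09 and 0.04.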

How the data were processed

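The build mm10 and the tools HTSeq 0.6.1, TopHat2 2.0.13, DESeq2 1.6.3 and Cufflinks 2.2.1 are named, per the submitters' processing notes, with no role or order. The annotation and strand setting were not given in the sources used here. Each library has its own file, deposited by the authors, of raw counts by gene symbol; the values are whole numbers with unequal totals.

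Counts were tested with edgeR 4.0.16 under R 4.3.3, by its quasi-likelihood test (TMM factors, filterByExpr with a minimum count of 10, group as the only term, two-sided, Benjamini-Hochberg over the 14345 genes tested). The filter removed 0.0971% of reads. The standard error comes from the F statistic. Alternatives used DESeq2 1.42.0, limma 3.58.1, other scalings and filters, a sex term, the replicate number as a term, and fits without each library. Steps were tested on simulated data. Exon lengths are GENCODE M21 unions, coordinates and promoters RefSeq (GRCm38.p6, the build of mm10).

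The labels number the libraries 1 to 3 in both groups without saying what a number marks. After subtracting group means, libraries with the same number correlated at 0.245 to 0.459, over the minimum of 0.1 used here. Other pairs reached at most 0.138, for control 1 with mutant 2, which is also over that minimum. By Xist and Ddx3y the pair of number 1 joins a female control with a male mutant. The pairing thus comes from the data and is uncertain. No 2 libraries were duplicates: over the 15 pairs the lowest chi-square divided by its degrees of freedom was 26.1. Intervals of log2 fold changes come from the fit and include the spread between libraries; intervals of pooled read ratios and floors cover counting error only.

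The members and lists were chosen with earlier results of these data known. All library values, a fold change and a test are given for genes with an unadjusted p under 0.05 or a call with the replicate term, and for tested receptors and ectodysplasin genes; of the other lists, called genes come first and then those with the smallest p, up to 4, plus others called with the term, such as Ccnd1, Fst and Shh, added after their values were seen. Of the symbols listed, Ccn1 and Ccn2 were matched as Cyr61 and Ctgf.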

Additional observations from a re-analysis of the deposited data

How the results depend on the processing

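No gene of the FGF and ectodysplasin set was called in any of the 6 fits without 1 library (range 0 to 0), with limma-voom, with other scaling factors, with the stricter filter or without both libraries of number 3. The set had 3 calls with DESeq2, 3 with the replicate block, 1 with the sex term (546 genes over all, 3.81%) and 1 without the filter (636, 3.18%). Over all genes, 986 were called with DESeq2, 1345 with the replicate block, 772 without both libraries of number 3 and 163 (without mutant 2) to 664 (without control 3) without 1 library, against 430 as reported; without control 1, control 2 or mutant 1 there were 193, 277 and 218. Of the 90 tested genes of the other lists, 3 were called as reported, 8 with DESeq2, 6 without the filter, 5 with the stricter filter, 18 with the replicate block, 6 with the sex term, 10 without both libraries of number 3, and 0 (without control 1 or mutant 2) to 4 without 1 library, with 1 left without mutant 1. None of Lrig1, Rasa1 and Bmp4 was thus called without control 1 or without mutant 2. Omitting both libraries of number 3 was chosen after seeing the data. With 3 libraries per group and amplified cDNA, scarce genes such as Fgf20 and Eda2r rest on few reads (222 and 216 in all). Fgfrl1 had more, with 633 reads in all, and its mutant libraries held 143, 218 and 111 of them. The causes of these shifts were not tested.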
